A study of Homo sapiens with 6 samples.

Results

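The chromatin loops described here are those of human chromosome 21 in HAP1, a near-haploid line that came out of KBM-7, itself from chronic myeloid leukaemia. They were taken from a deposited list as every loop with both anchors on chromosome 21, a choice by position and not by any measured value. They numbered 422 of 46849 loops (0.901%). The contacts came from Micro-C, a form of Hi-C that fragments fixed chromatin with micrococcal nuclease, down to nucleosomes, before ligation. All 6 libraries belong to 1 group, untreated HAP1 cells that had become diploid and were isolated by sorting on Hoechst, a DNA stain. The cells were fixed with formaldehyde and DSG. The labels do not say whether these were separate cultures. The list pools the libraries, so no value below has a spread between replicates and no test between samples was possible. Positions are in hg19, counted from 1.

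A chromatin loop in such a list is a pair of loci that touch more often than their surroundings. Many loops arise when the cohesin complex extrudes chromatin until it meets the boundary protein CTCF, and others join enhancers with promoters. Chromosome 21 is the smallest human autosome and the one present in excess copy in Down syndrome. Its long arm is known for a gene-poor stretch next to the centromere and a gene-rich stretch towards the telomere. In the RefSeq order, the genes on the way to the telomere include NCAM2, a neural adhesion molecule, APP, the precursor of the amyloid peptide, SOD1, a superoxide dismutase, RUNX1, a haematopoietic transcription factor, DYRK1A, a protein kinase, and COL6A1, a collagen chain. Gene positions in hg19 were not used here, so loops are named by position, and the gene content of either stretch was not measured.

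The 2 stretches compared were fixed at 14 to 31 Mb, called the proximal part, and 31 to 48 Mb, called the distal part, each 17 Mb long. A loop was placed in one of them when both its anchors lay inside. This put 156 loops in the proximal part and 263 in the distal part. Of the remaining 3 loops, 1 crossed the boundary at 31 Mb and 2 lay below 14 Mb. The crossing loop joined 30740001 to 30750000 with 32470001 to 32480000, a span of 1.73 Mb, with 13 observed contacts against 3.22 expected. The loops below 14 Mb were both short. One joined 10815001 to 10820000 with 10855001 to 10860000 (15 contacts, 40 kb), and the other joined 11080001 to 11085000 with 11115001 to 11120000 (52 contacts, 35 kb). In the authors' deposited table the largest q-value was 0.305 for the crossing loop. It was 0.618 for the loop of 40 kb and 2.66e-10 for that of 35 kb.

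Chromosome 21 as a whole was sparse in loops. From its first to its last anchor it carried 11.4 loops per Mb, against 16 on the other chromosomes together, a ratio of 0.710 (exact 95% interval 0.643 to 0.781). Measured over that length, it had the lowest density of the 23 chromosomes, below the 12.8 loops per Mb of chromosome X. Chromosomes 13, 18 and 22 had 14.2, 13.7 and 19.4 loops per Mb. Without the 2 loops below 14 Mb, and with length counted from the next anchor, at 15630001, the ratio was 0.812 (interval 0.736 to 0.894). The stretch from 14 Mb to that anchor was thus left out too. The place of chromosome 21 among the chromosomes was not computed for that case. Intervals of counts, shares and ratios of counts here cover counting error only, and intervals of medians reflect the spread among loops. None covers variation between replicates. Those over loops are too narrow because neighbouring loops are not independent.

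Loops of at least 1 Mb formed a larger share on chromosome 21 than on any of the other 22 chromosomes. They were 31 of its 422 loops (7.35%), against 3.80% on the other chromosomes together, where single chromosomes ranged from 1.08% to 6.61%. The difference was 3.54 percentage points (95% interval 1.41 to 6.44). Many of these loops lay in 2 places, 7 between 28 and 31 Mb and 10 between 35 and 39 Mb. The class below went the other way. Loops of 500 kb to 1 Mb were 7.82% on chromosome 21 (exact 95% interval 5.44 to 10.8%) against 12.3% on the other chromosomes. Its median span, in contrast, was 152.5 kb (exact 95% interval 130 to 185 kb) against 160 kb (155 to 160 kb), so the higher share of very long loops did not come with a longer median. Loop strength, the observed contacts divided by the expected ones, had a median of 3.68 (interval 3.45 to 3.89) against 3.55 (3.53 to 3.57). The expected value is the one the caller computed from the donut-shaped surroundings of the loop's pixel on the contact map.

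The proximal part was the sparse one. It held 9.18 loops per Mb (exact Poisson 95% interval 7.79 to 10.7), against 15.5 (13.7 to 17.5) in the distal part, a ratio of 0.593 (exact interval 0.483 to 0.726). The distal part was thus near the 16 loops per Mb of the other chromosomes. The deficit was carried by loops with 5 kb anchors, the finer of the 2 resolutions in the list. There were 114 of these in the proximal part and 228 in the distal part, a ratio of 0.50 (interval 0.396 to 0.629). Loops with 10 kb anchors numbered 42 in the proximal part and 35 in the distal part, a ratio of 1.20 whose interval (0.748 to 1.94) includes 1. No 10 kb loop in the list overlapped a 5 kb loop at both anchors (0 of 7127), so the 10 kb loops are places where no 5 kb loop was listed. How the 2 resolutions were merged into the list is not given. The 10 kb counts can therefore not be taken as independent of the 5 kb counts.

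The shortage extended over the shorter span classes. Loops under 100 kb numbered 53 in the proximal part and 96 in the distal part, a ratio of 0.552 (exact interval 0.387 to 0.780). Those of 100 to 200 kb numbered 32 and 62 in the same order (ratio 0.516, interval 0.326 to 0.803), and those of 200 to 500 kb numbered 45 and 68 (ratio 0.662, interval 0.444 to 0.979). Above 500 kb the loops were too few to tell. There the counts were 12 proximal and 21 distal loops up to 1 Mb (interval of the ratio 0.256 to 1.2), and 14 proximal and 16 distal loops beyond (0.396 to 1.91). Long loops were therefore the class in which the counts of the 2 parts lay closest.

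**Figure D1:**
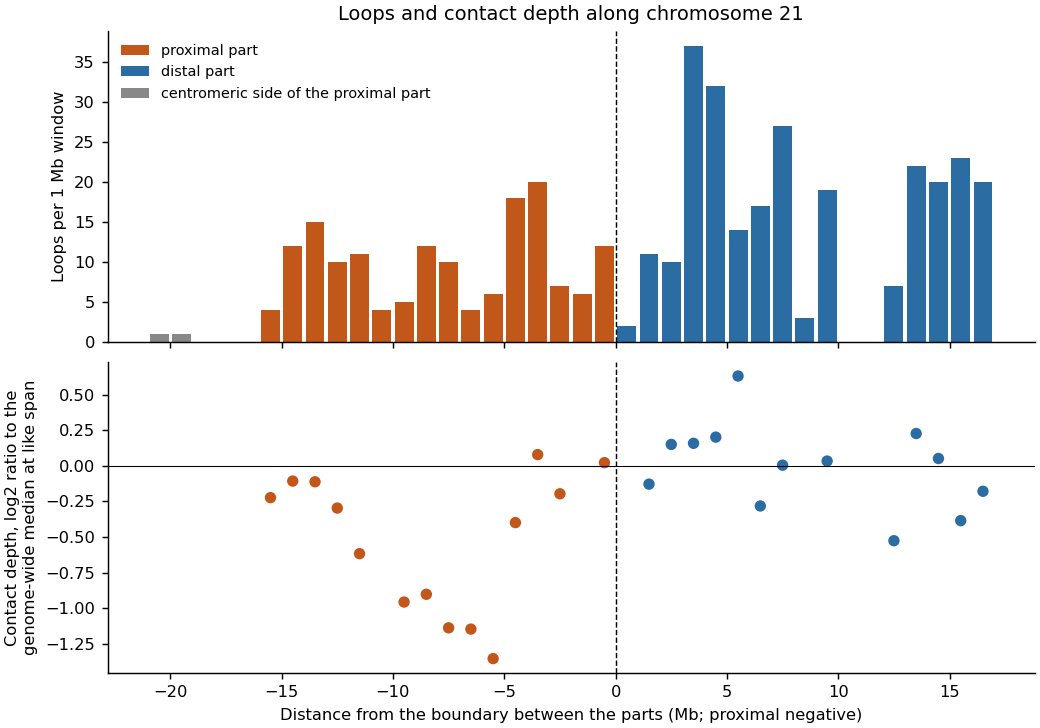
The upper panel plots loops per 1 Mb window by loop midpoint along chromosome 21, and the lower panel the median contact depth of 5 kb loops in windows with at least 3 of them, as a log2 ratio to the genome-wide median at like span; proximal windows are orange and distal ones blue. Proximal windows reach at most 20 loops and distal ones up to 37, with 1 empty window in the proximal and 2 in the distal part, and depth is lowest in the middle of the proximal part.

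Window by window, the proximal part had fewer loops, and both parts were uneven. The 17 proximal windows of 1 Mb held a median of 10 loops (range 0 to 20), against a median of 17 (range 0 to 37) in the 17 distal windows. Only 1 proximal window reached 20 loops, the one from 27000001 to 28000000, with 20. In the distal part 7 windows did so, led by 34000001 to 35000000 with 37 loops and 35000001 to 36000000 with 32. On the other chromosomes the median window held 16 loops and 35.9% of 2912 windows reached 20. The 3 fullest windows held 34.0% of the proximal and 36.4% of the distal loops, and 4 windows in each part had fewer than 5.

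The longest stretches without an anchor lay at the edge of the proximal part and inside the distal part. No anchor was found from 11120001 to 15630000 (4.51 Mb), which takes in the first 1 Mb window of the proximal part and spans the region where chromosome 21 has its centromere. In the distal part no anchor lay between 41090001 and 43235000 (2.15 Mb), and no loop bridged it. That stretch divided the distal part into a block of 10 Mb with 172 loops (31 to 41 Mb) and one of 5 Mb with 92 (43 to 48 Mb, loops placed by midpoint), which had 17.2 and 18.4 loops per Mb. Inside the proximal part, past its first anchor, the longest stretch without an anchor ran from 28590001 to 29070000 (480 kb), and 7 loops passed over it. With each part measured from its first to its last anchor, the proximal over distal ratio of density was 0.643, and with the 2.15 Mb stretch also left out it was 0.559. Loops covered 83.6% of the proximal and 85.3% of the distal part in all, but 33.6% of the proximal and 48.9% of the distal part lay under at least 5 loops.

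Contact depth at 5 kb loops was lower in the proximal part as well. Depth is given here as the expected count of a 5 kb loop over the genome-wide median of 5 kb loops of like span. Its median was 0.769 (exact 95% interval 0.688 to 0.832, 114 loops) in the proximal part and 1.01 (0.95 to 1.06, 228 loops) in the distal part, a ratio of 0.763 (interval 0.652 to 0.876). From the fewer 10 kb loops the ratio was 1.15, in the opposite direction, with an interval (0.648 to 1.44) that includes 1. Over both widths together, a proximal loop had a median of 24 observed contacts (interval 22 to 27, range 10 to 126) and a distal loop one of 32 (29 to 34, range 9 to 127). Among 5 kb loops these medians were 23 in the proximal and 32 in the distal part. Among 10 kb loops they were 25 in the proximal and 24 in the distal part. A count of at least 20 contacts was reached by 65.4% of proximal and 80.2% of distal loops, a difference of -14.8 percentage points (95% interval -23.7 to -6.09). The list does not hold the contact map itself, so depth is known only where a loop was listed. The part of depth in the lower density was not tested.

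The lowest depth lay in the middle of the proximal part. From 19 to 26 Mb, a stretch picked after the values had been seen, each of the 36 loops with 5 kb anchors was below the genome-wide median at its span. Their median depth was 0.508, and the 52 loops of both widths there had a median of 18.5 observed contacts. On either side depth was closer to the rest of the genome, 0.871 from 14 to 19 Mb (32 loops) and 0.891 from 26 to 31 Mb (46 loops). Loop density was lowest there too. It was 7.43 per Mb from 19 to 26 Mb, against 12.6 from 26 to 31 Mb and 12.2 from 14 to 19 Mb when that stretch is measured from its first anchor (8.20 over its full 5 Mb, part of which lies in the 4.51 Mb without anchors). Strength had a median of 3.69 (interval 2.91 to 4.37) there, against 3.24 (2.80 to 3.88) and 3.78 (3.23 to 4.29) on its centromeric and telomeric sides. In the distal part, depth was 0.877 from 43 to 48 Mb, at 18.4 loops per Mb. Any dependence of density on depth was not tested. Across the 27 windows with a depth value, depth and loop number went together (rho = 0.63 by Spearman, r = 0.55 by Pearson). Windows with fewer than 3 loops of 5 kb anchors have no depth value and are left out. They held at most 6 loops each. Within the proximal part rho was 0.59 (14 windows) and within the distal part 0.29 (13 windows). These are descriptions of windows that share the same pooled libraries.

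Spans hardly differed between the parts. The median was 152.5 kb (exact 95% interval 115 to 210 kb) in the proximal part and 155 kb (130 to 185 kb) in the distal part, a difference of -2.5 kb with bounds of -70 and 80 kb. The quartiles were 73.8 and 353 kb in the proximal part and 70 and 313 kb in the distal part. Among 5 kb loops alone the medians were 112.5 kb in the proximal and 135 kb in the distal part, and among 10 kb loops 340 and 410 kb in that order. Loops of at least 1 Mb were 8.97% of the proximal loops (14 of 156) and 6.08% of the distal ones (16 of 263), a difference of 2.89 points whose interval (-2.15 to 8.88) includes 0.

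**Figure D2:**
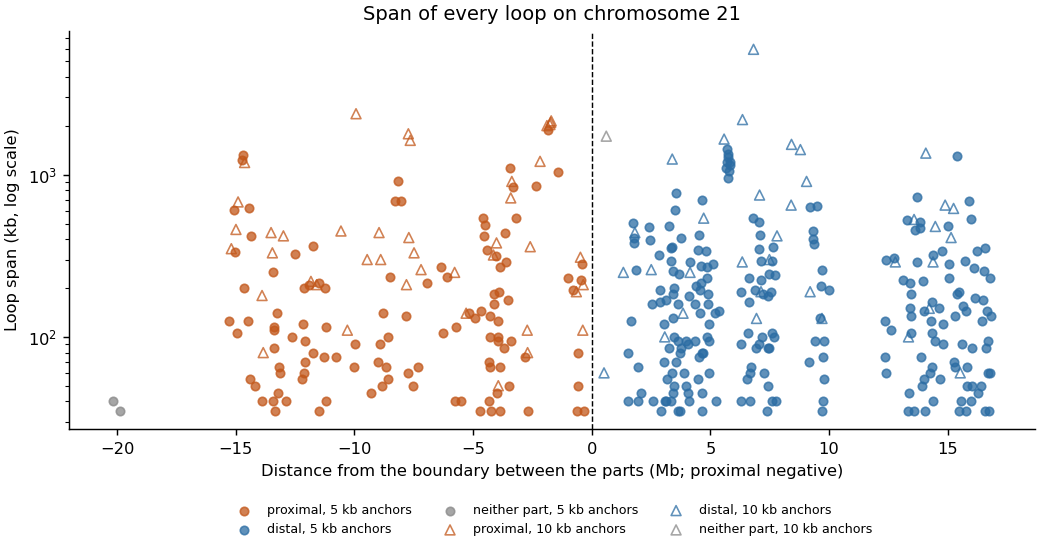
Each point is a loop of chromosome 21, placed by its midpoint relative to the boundary between the parts and by its span in kb on a log axis; filled circles are loops with 5 kb anchors and open triangles loops with 10 kb anchors. Open triangles make up 42 of 156 loops in the proximal part and 35 of 263 in the distal part, and a column of loops of 950 kb and more stands within the distal part between 5 and 6 Mb from the boundary.

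Loops with 10 kb anchors, the coarser resolution of the list, made up a larger share of the proximal loops. Their density was 2.47 per Mb in the proximal and 2.06 in the distal part. The larger share thus goes with the shortage of 5 kb loops given above and is not a separate result. Of proximal loops, 26.9% had 10 kb anchors (exact 95% interval 20.1 to 34.6%), against 13.3% (9.45 to 18%) of distal loops, a difference of 13.6 percentage points (interval 5.76 to 21.9). The other chromosomes together had 15.2%. The gap was widest among loops of 200 to 500 kb, where 21 of 45 proximal loops (46.7%, interval 31.7 to 62.1%) and 11 of 68 distal loops (16.2%, interval 8.36 to 27.1%) had 10 kb anchors. At 100 to 200 kb the counts were 6 of 32 proximal and 8 of 62 distal loops, and at 500 kb to 1 Mb they were 3 of 12 proximal and 7 of 21 distal loops, with intervals of the difference that include 0 in both classes. Among loops with each of the caller's 4 q-values at or below 0.1, the difference in the share was 7.57 points and its interval (-0.465 to 16.9) included 0. These q-values were met by 64.7% of proximal and 74.1% of distal loops.

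Loop strength had nearly the same median in both parts. The median was 3.68 (exact 95% interval 3.24 to 3.89) in the proximal part and 3.64 (3.43 to 4.02) in the distal part, a ratio of 1.01 with bounds of 0.805 and 1.13. Within anchor width the medians were 3.92 in the proximal and 3.89 in the distal part for 5 kb loops, and 2.86 and 2.85 in that order for 10 kb loops. The proximal part was thus lower in loops and, among 5 kb loops, in contacts. The interval for strength, the enrichment of a listed loop over its surroundings, included equal values. The lowest ratio listed on the chromosome was 1.75, so weaker contacts are outside these medians.

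By span class, the medians lay farthest apart at 200 to 500 kb and at 500 kb to 1 Mb. Loops of 200 to 500 kb had a median strength of 3.72 (interval 3.22 to 4.81) in the proximal part and 5.03 (4.24 to 5.77) in the distal part. Among those with 5 kb anchors the medians were 5.00 (interval 4.37 to 7.15, 24 loops) in the proximal part and 5.21 (4.87 to 6.13, 57 loops) in the distal part. Among those with 10 kb anchors they were 2.84 (21 loops) in the proximal part and 2.82 (11 loops) in the distal part. At 500 kb to 1 Mb the proximal median was the higher one, 7.07 (interval 3.67 to 9.86, 12 loops) against 6.00 (4.70 to 6.79, 21 loops) in the distal part. Among 5 kb loops of that class it was 8.69 (interval 5.09 to 11.6, 9 loops) in the proximal and 6.03 (5.11 to 7.88, 14 loops) in the distal part, with overlapping intervals. Under 100 kb the medians over both widths were 2.62 in the proximal and 2.70 in the distal part, at 100 to 200 kb 3.91 in both, and at 1 Mb or more 6.04 in the proximal and 5.70 in the distal part. On the other chromosomes the class medians increased from 2.63 under 100 kb to 6.35 at 1 Mb or more.

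**Figure D3:**
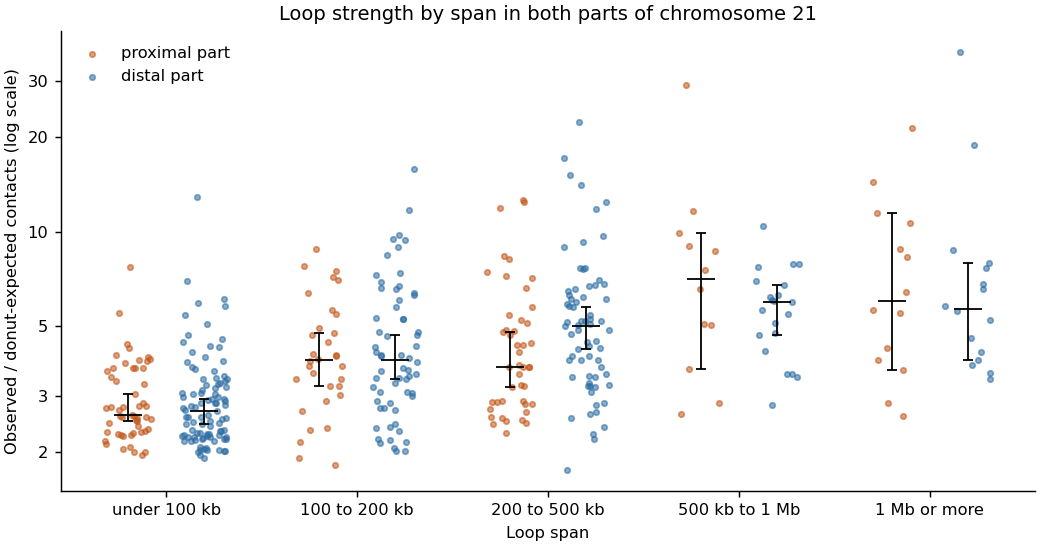
Each point is a loop, drawn by span class and by its ratio of observed to donut-expected contacts on a log axis. Proximal loops stand left of distal ones. Black bars are medians with exact 95% order-statistic intervals, which reflect the spread among loops taken as independent. The intervals of the 2 parts overlap in every class, and medians are lowest under 100 kb (2.62 for proximal and 2.70 for distal loops) and highest at 500 kb to 1 Mb (7.07 for proximal and 6.00 for distal loops).

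The strongest loops of the proximal part, among those with an expectation of at least 1 contact, formed a closed triangle. Its corners lay at 28220001 to 28225000, 29070001 to 29075000 and 30115001 to 30120000. The first and second corner were joined by 68 contacts (exact Poisson 95% interval 52.8 to 86.2) against 2.34 expected, a ratio of 29.1. The first and the third, 1.90 Mb apart, had 53 contacts (39.7 to 69.3) against 2.49 expected, a ratio of 21.3. The second and the third had 22 contacts (13.8 to 33.3) against 1.53, a ratio of 14.4, in a single pixel. These 3 loops thus share each of their anchors, and the largest of their q-values in the authors' deposited table, over all 4 surroundings, was 3.20e-11. By the weakest of its 3 sides, this triangle was the strongest of the 47 on the chromosome, the next reaching 5.75.

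More loops ended beside the same corners. Within 10 kb of the first corner 9 loops ended, and 5 of them ran at least 1.21 Mb to higher coordinates. The second corner held only its own 2 loops of the triangle. Beside the third corner 5 loops ended, from 195 kb to 2.01 Mb in span. Of these, the ones that are not sides of the triangle had ratios from 3.64 to 8.19. The anchor at 28210001 to 28220000, next to the first corner, also held 2 of the 3 longest proximal loops, of 2.15 Mb (22 contacts, ratio 3.91) and 2.10 Mb (25 contacts, ratio 4.29). In the authors' deposited table the largest q-value was 0.143 for the loop of 2.15 Mb and 0.00152 for that of 2.10 Mb. In all, 7 of the 14 proximal loops of at least 1 Mb lay between 28 and 31 Mb. The longest proximal loop lay elsewhere, between 19870001 to 19880000 and 22250001 to 22260000 (2.38 Mb), with 15 contacts against 2.73.

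**Figure D4:**
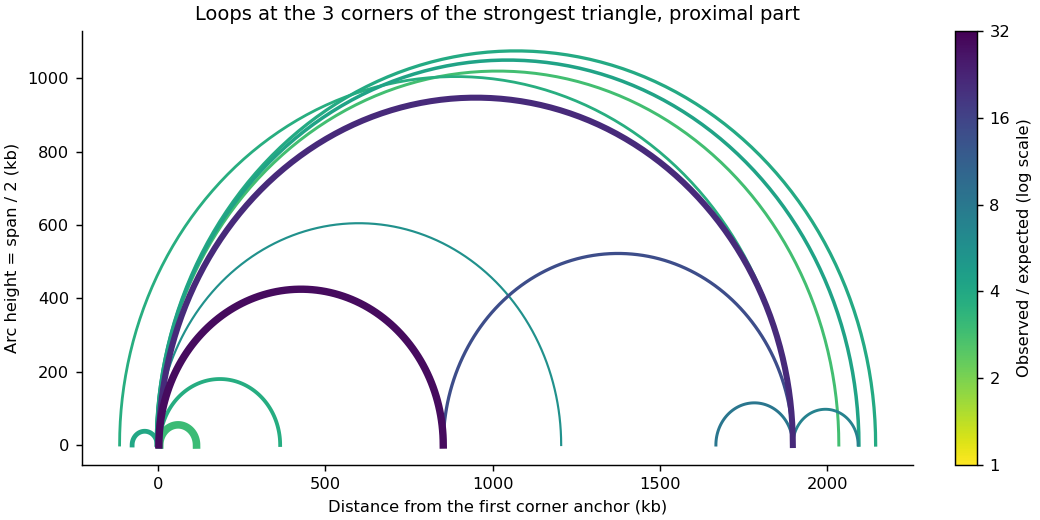
Arcs are the 13 loops with an anchor within 10 kb of a corner of the strongest proximal triangle; the horizontal axis gives distance from the first corner in kb, arc height is the span divided by 2, line width grows with observed contacts and colour gives observed over expected contacts on a log scale. The 3 dark arcs, with 68, 22 and 53 contacts, join corners 850, 1045 and 1895 kb apart, and paler arcs with ratios of 2.86 to 8.19 surround them.

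In the distal part the strongest loop, by the same rule, joined 35295001 to 35300000 with 35720001 to 35725000. It had 108 contacts (exact Poisson interval 88.6 to 130.4) against 4.87 expected, a ratio of 22.2. It was followed by 44595001 to 44600000 with 45065001 to 45070000, which also had the highest count of the chromosome, 127 contacts (106 to 151) against 7.41 and a ratio of 17.1. The next, 40890001 to 40895000 with 41085001 to 41090000, had 34 contacts against 2.16 (ratio 15.7). Its upper anchor is the last before the 2.15 Mb stretch without anchors. These distal loops spanned 425, 470 and 195 kb. Just outside the limit of 1 expected contact lay a distal loop of 1305 kb, named after its values were seen. It joined 45755001 to 45760000 with 47060001 to 47065000 and rested on 1 pixel, where 18 contacts were observed and 0.955 expected (ratio 18.9). A ratio of at least 10 was found for 9 of 156 proximal loops (5.77%) and 12 of 263 distal loops (4.56%), against 5.66% on the other chromosomes.

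By observed count, the leading proximal loops were short and sat together. A loop of 50 kb between 27030001 to 27040000 and 27080001 to 27090000 had 126 contacts, but at 55.6 expected contacts its ratio was 2.27, and its anchors were 10 kb wide. The anchor at 26980001 to 26985000 sent loops to 27080001 to 27085000 (121 contacts, ratio 7.77, 17 merged pixels) and to 27105001 to 27110000 (117 contacts, ratio 5.48). After the loop of 127 contacts, the distal part was led by 34310001 to 34315000 with 34495001 to 34500000 (121 contacts, ratio 8.91, 185 kb). The third was 44345001 to 44350000 with 44390001 to 44395000 (119 contacts, ratio 5.43, 45 kb). The highest counts of the parts were therefore close, although the medians were not.

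The longest loop of the chromosome spanned 5.94 Mb in the distal part, from 34840001 to 34850000 to 40780001 to 40790000. It rested on a single pixel with 13 contacts (exact Poisson interval 6.92 to 22.2) against 0.351 expected, and its ratio of 37.1 has little precision for that reason. The next distal loops in length spanned 2.19 Mb, from 36250001 to 36260000 to 38440001 to 38450000 (9 contacts, the lowest count on the chromosome), and 1.66 Mb, from 35740001 to 35750000 to 37400001 to 37410000 (20 contacts). In the authors' deposited table the largest q-value was 0.547 for the loop of 2.19 Mb and 0.0971 for that of 1.66 Mb. Loops of at least 2 Mb were 5 in the proximal part and 2 in the distal part.

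Long distal loops gathered around a stretch without anchors. No anchor lay between 36425001 and 37190000 (765 kb), yet 12 loops passed over it, the 3 longest distal loops among them. They left from 9 anchor positions on the lower side and reached 6 on the upper side. Their spans ran from 950 kb to 5.94 Mb (median 1240 kb), with 9 to 30 contacts and a median ratio of 5.37. Any loop over this stretch must span more than 765 kb, so long spans follow from the way these were picked. The window from 36000001 to 37000000 also had the highest depth of the windows with a value (log2 ratio 0.630). Apart from the loops of 5.94 and 2.19 Mb, the 12 loops form the column of long loops in the plot of spans. Of the 16 distal loops of at least 1 Mb, 10 lay between 35 and 39 Mb. In the proximal part, loops also passed over anchor-free stretches between the corners of the triangle. There 7 loops crossed 28590001 to 29070000 and 6 crossed 29430001 to 29885000, with sides of the triangle among them. Another bridged stretch, 22610001 to 23060000 (450 kb) in the low-depth region, was passed by 5 loops with ratios from 6.45 to 10.7.

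Anchors were merged where they overlapped by at least 1 bp, which gave 179 merged anchors in the proximal part and 259 in the distal part. Proximal anchors were shared less. At least 3 loops were held by 33 proximal anchors (18.4%, exact 95% interval 13 to 24.9%) and 76 distal ones (29.3%, 23.9 to 35.3%), a difference of -10.9 percentage points (interval -18.6 to -2.71). Both anchors were shared with another loop for 42.9% of proximal and 57.0% of distal loops (difference -14.1 points, interval -23.6 to -4.18). Anchors with 5 or more loops, called hubs here, numbered 8 in the proximal part (4.47%, interval 1.95 to 8.62%) and 20 in the distal part (7.72%, 4.78 to 11.7%). That difference, -3.25 points, had an interval (-7.73 to 1.64) that includes 0. With anchors within 10 kb of each other merged as well, it was -10.5 points with an interval (-17.6 to -3.05) that excludes 0. With 5 kb loops alone it was -1.35 points, with an interval (-4.73 to 2.71) that includes 0. These shares were not adjusted for the smaller number of proximal loops. The other chromosomes had 25.0% of anchors with at least 3 loops and 6.72% with at least 5.

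**Figure D5:**
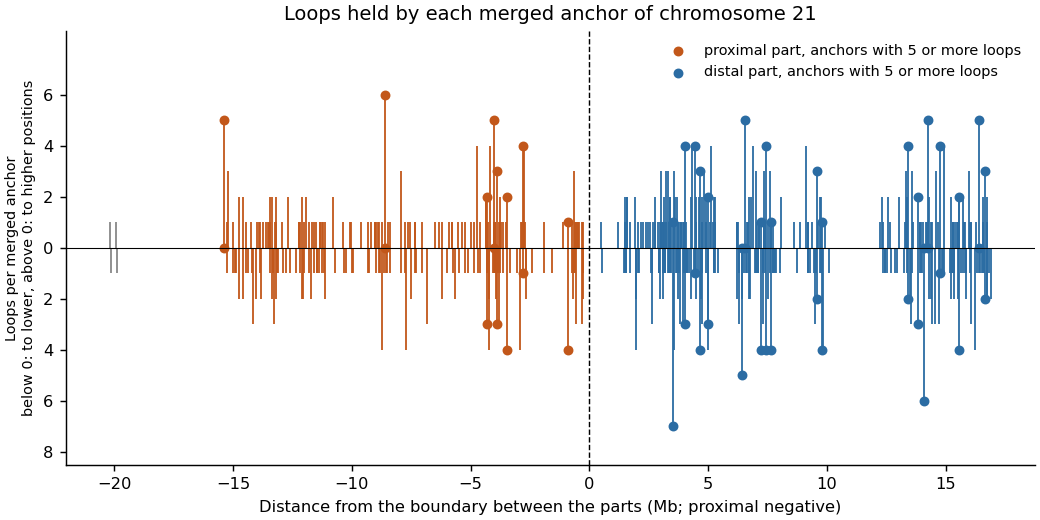
Each vertical line is a merged anchor of chromosome 21, drawn upward for loops to higher positions and downward for loops to lower positions; dots mark the hubs, anchors with 5 or more loops, in the proximal (orange) and distal (blue) part. With anchors merged only where they overlap, the proximal hubs hold at most 6 loops and lie mostly within 5 Mb of the boundary. The distal hubs hold up to 8 loops and are spread over 9 windows of 1 Mb. Adjoining anchors at the first corner of the strongest proximal triangle, where 9 loops end within 10 kb, are drawn apart.

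Proximal hubs were concentrated near 27 Mb. Of the 8, 6 lay between 26 and 31 Mb, and the stretches from 14 to 19 Mb and from 19 to 26 Mb had 1 each. The hub at 27105001 to 27110000 held 6 loops, 3 to each side, with 18 to 117 contacts. One of its partners was the hub at 26980001 to 26985000, whose 5 loops ended at higher coordinates, at most 1105 kb away, with ratios of up to 11.4. Another partner was the hub at 27540001 to 27545000, with 4 of its 6 loops to lower coordinates and a low median ratio of 2.92. The hub at 26690001 to 26700000 held 5 loops, 3 of them to lower coordinates. These hubs belonged to a group of 36 loops, linked through shared anchors, that extended from 26020001 to 28090000.

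The hub at 22370001 to 22380000 stood alone in the low-depth stretch. Its 6 loops all ran to higher coordinates, over 55, 100, 235, 685, 920 and 1790 kb. Their observed counts were 36, 63, 11, 11, 16 and 29 in the same order, and the ratios 3.95, 8.79, 4.81, 8.69, 8.97 and 10.7. The ratio thus tended to be higher for the longer loops, while the expectation was at most 9.11 contacts. Its median ratio of 8.74 was the highest of the 8 proximal hubs. The proximal hub nearest the centromere, at 15630001 to 15640000, was also the first anchor beyond the 4.51 Mb stretch without anchors, and its 5 loops all ran away from that stretch.

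Among distal hubs, the one at 34495001 to 34500000 led with 8 loops, 7 of them to lower coordinates. Its partners on that side lay 50 to 480 kb away, with 15 to 121 contacts. The hub at 38440001 to 38450000 also held 8 loops, 4 to each side, from 50 kb to 2.19 Mb. The hub at 35010001 to 35020000 held 7 loops (4 to higher coordinates, 17 to 93 contacts), and the one at 35640001 to 35645000 held 7 (4 to lower coordinates, 10 to 56 contacts). All 6 loops of the hub at 45065001 to 45070000 ran to lower coordinates, including the loop of 127 contacts described above. All loops ran to one side in 3 of the 8 proximal and 5 of the 20 distal hubs. Over the hubs of each part, 28 loop ends pointed to higher and 15 to lower coordinates in the proximal part, against 54 and 59 in the distal part. Such directions were not computed for hubs of the other chromosomes.

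Linked through shared anchors, the loops fell into groups that also differed in size between the parts. Groups of at least 10 loops held 97 loops (63.0%) in the 39 groups that lay mostly in the proximal part, and 220 loops (82.7%) in the 39 that lay mostly in the distal part. These shares were not adjusted for the smaller number of proximal loops, and were not computed for the other chromosomes. The largest proximal groups had 36 loops, named above, and 22 loops (28100001 to 30710000), which held the triangle. The largest distal ones had 65 loops (35285001 to 39020000), 60 loops (44290001 to 47405000) and 38 loops (33760001 to 35270000). The loop that crosses 31 Mb belonged to a group of 12 loops from 30460001 to 33040000. Closed triangles numbered 13 in the proximal and 34 in the distal part, or 8.33 per 100 proximal loops and 12.9 per 100 distal loops, against 12.4 on the other chromosomes.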

How the data were processed

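Micro-C libraries of HAP1 cells (6 replicates, 1 group) enter as 1 list of loops. The submitters' processing notes name BWA and hg19, and the file header names juicer_tools version 1.22.01. No source used here gives library depths, the way of pooling or the settings of the loop caller. Per the file headers, each loop has an observed count of contacts and, deposited beside it, 4 expected values (a signal on the same scale, from surroundings named donut, lower-left, vertical and horizontal), 4 q-values, the number of merged pixels and a radius (not used).

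Values were computed in Python 3.11.15 with scipy 1.17.1, pandas 2.3.3 and numpy 2.4.6, and drawn with matplotlib 3.10.9. Span is the distance between anchor midpoints and strength the observed count over the donut value. Shares have exact binomial (Clopper-Pearson) intervals, differences of shares Newcombe's, ratios of counts exact conditional binomial ones, and medians exact order-statistic ones, all at 95%. Bounds for a difference or ratio of medians combine the outer ends of both intervals. Depth used 40 span bins. No hypothesis test was run, since the list holds 1 pooled sample. Functions were tested on simulated data. The region, its boundary and the lists were chosen with earlier results of these data known. Loops named are, in each part, the 3 strongest with an expectation of at least 1, the 3 highest counts, the 3 longest, the 5 anchors with most loops (ties by summed contacts) and loops outside both parts; other hubs and the bridged stretches were chosen after their values were seen. RefSeq gene names come from GRCh38.p14. The planned gene context was not run, and no hg19 genome or sequence was used here. No column of other samples was used. Alternatives were the boundary, anchor width, count and q-value minimums, merged pixels, expectation, anchor merging and hub size.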

Additional observations from a re-analysis of the deposited data

How the results depend on the processing

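Of 58 alternative values, 51 fell inside the reported value's 95% interval. The proximal over distal ratio of loop density lay below 1 in 11 of 12 alternatives. With 10 kb loops alone it was 1.20, the opposite direction with an interval that includes 1, and with at least 20 observed contacts it was 0.483. The depth ratio from 10 kb loops was 1.15, again the opposite direction (interval 0.648 to 1.44), against 0.730 to 0.873 in the other 7 alternatives. The ratio of chromosome 21 to the other chromosomes was 0.864 with 10 kb loops alone (interval 0.682 to 1.08). Without the 2 loops below 14 Mb, and measured from the next anchor at 15630001, it was 0.812. The difference in hub shares was -10.5 points with anchors within 10 kb merged and -10.9 points with hubs of 3 or more loops. Of its 6 alternatives, only these 2 had intervals that exclude 0. It was -1.35 points with 5 kb loops alone, -0.772 with hubs of 8 or more loops and -4.40 with loops within 25 kb counted once. The cause was not tested in these cases. Without 19 to 26 Mb, chosen after seeing the data, the density ratio was 0.672, the depth ratio 0.873, the difference in 10 kb shares 11.7 points and that in hub shares -0.991 points; measuring each part from first to last anchor was also chosen afterwards. No replicate could be left out and no paired analysis was possible because the list pools the replicates.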
